A study of Bos taurus with 15 samples.

Results

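Messenger RNA of 31 genes of cholesterol synthesis and its sterol control was followed in bovine (Bos taurus) blastocysts at day 7. The genes were chosen by name, with earlier results of these data known. They were 20 enzymes that lead from acetyl units to cholesterol and neighbouring isoprenoids, and 11 genes of sterol sensing, uptake, export and storage. All 31 were among the 17259 genes of the count table, and all 31 were among the 11578 genes that passed the filter on low counts. There were 3 groups of 5 libraries. In the first, the cumulus cells that surround the egg were removed from zygotes automatically, and the embryos were then cultured in SOF medium up to day 7. In the second, the cumulus cells were removed by hand, with the same culture. In the third, blastocysts developed in the animal and were collected at day 7. The labels name no breed, donor or further treatment. The series' design counts 5 blastocysts in each group, which with 5 libraries would be 1 blastocyst a library. No label states that they came from different cultures, donors or days. The p-values below therefore reflect the spread among the libraries at hand, part of which may be technical.

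Cells make cholesterol from acetyl-CoA through mevalonate, the isoprenoid diphosphates, squalene and lanosterol, and the late steps trim and reshape lanosterol into cholesterol. The pathway is controlled by SREBP transcription factors, which SCAP escorts from the endoplasmic reticulum when membrane sterol is low and which INSIG proteins hold back when it is high. Released SREBP2, the product of SREBF2, raises transcription of the synthesis enzymes and of sterol uptake, while oxysterols act through liver X receptors to raise export. An early embryo builds new membrane at each cleavage and draws on synthesis, stored lipid and uptake for its sterol.

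The libraries held between 17.96 and 41.97 M counts each (M, 1000000 counts). Automatic 2 and 4, manual 2, and in vivo 2 and 4 are called low-detection libraries here: 10 or more counts were reached by 6977 to 8547 genes in these 5 and by 9900 to 12611 genes in the other 10. Mitochondrially encoded transcripts took 8.18% to 14.4% of counts in these 5 libraries and 3.26% to 9.99% in the others. Of 11 blastocyst markers, among them KRT18 and POU5F1, 10 had counts in every library and CDX2 had 0 counts in 1. Their levels, in CPM (counts scaled to 1000000 per library, on TMM-scaled library sizes), summed to 5257 to 14829.9 in automatic libraries, 8495 to 35286 in manual libraries and 13721 to 31838 in vivo. Of 11 cumulus and granulosa cell markers 10 were in the table. They summed to 17.1 to 43.2 CPM in automatic, 35.4 to 138 CPM in manual and 12.9 to 224 CPM in in vivo libraries, and the list was mixed. FOXL2 was at 0 in all 15 libraries, while FSHR and CYP19A1 had counts in all 15. FSHR averaged 9.08 ± 5.25 CPM (automatic), 12.5 ± 12.6 CPM (manual) and 18.3 ± 16.3 CPM (in vivo), and STAR averaged 14.5 ± 16.5 CPM (automatic), 31.2 ± 10.3 CPM (manual) and 61.1 ± 76.7 CPM (in vivo; SD, n = 5 each). Of 8 stromal and blood cell markers 7 were in the table, and they summed to 23.5 to 351 CPM in automatic, 4.47 to 452 CPM in manual and 0.306 to 37.2 CPM in in vivo libraries, with the leukocyte marker PTPRC at 0 throughout. Of 5 oocyte markers, all in the table, the sums were 0.166 to 19.3 CPM (automatic), 11.8 to 41.2 CPM (manual) and 3.68 to 39.7 CPM (in vivo). The part of these cell types in the results below was not tested. In these bulk libraries fewer cells of a type and less RNA per cell cannot be told apart.

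Before any comparison, the pathway differed widely between libraries of the same group. In library in vivo 2, 8 of 20 synthesis enzymes lay under 1 CPM and 11 were at their lowest level (ties counted) among the 15 libraries. In automatic 4, another low-detection library, 5 lay under 1 CPM and 8 were at their lowest. In vivo 4, although it too was a low-detection library, had 0 synthesis enzymes under 1 CPM and the highest level of the 15 for 5 of them. The median coefficient of variation (SD over mean) of the 20 enzymes was 72.4% in automatic, 46.5% in manual and 79.9% in in vivo libraries. Without the low-detection libraries these medians were 27.7% over 3 automatic, 46.4% over 4 manual and 38.7% over 3 in vivo libraries. Manual libraries thus spread about as much with as without manual 2, while most of the spread in the other groups lay with their low-detection libraries.

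**Figure D1:**
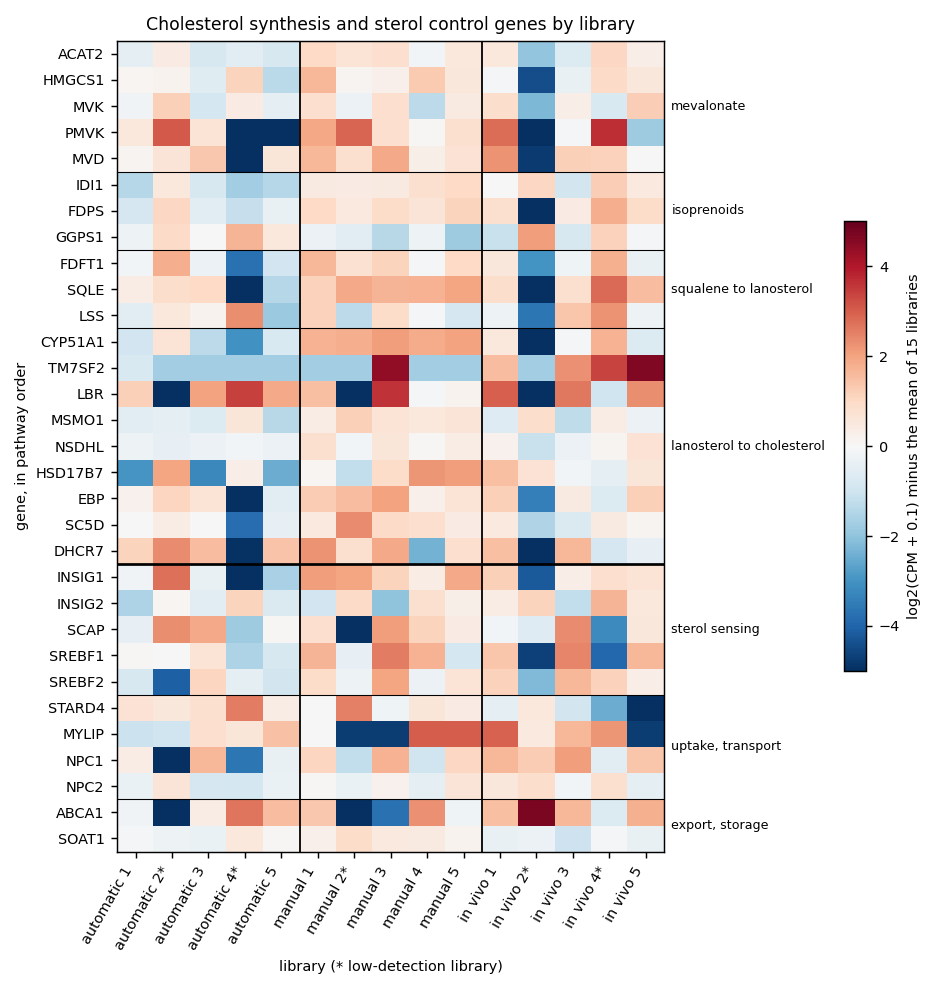
Level of each of the 31 genes in each of the 15 libraries, as log2(CPM + 0.1) minus the mean of the gene over all libraries (red above, blue below; colours end at 5 in either direction). Rows follow the pathway and columns the groups, and stars mark the 5 low-detection libraries. The bluest columns among the synthesis enzymes are in vivo 2 and automatic 4, which had 8 and 5 of the 20 enzymes under 1 CPM.

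The same spread can be read from a library score, the mean over the enzymes of log2 CPM centred on the 15 libraries, less that mean over all genes tested. For the 20 synthesis enzymes it was -0.92, 1.55, -1.01, -0.53 and -1.27 in automatic libraries 1 to 5. It was 0.20, 0.92, 1.02, -0.23 and 0.38 in manual libraries 1 to 5, and 0.40, -1.91, -0.59, 1.60 and 0.41 in vivo. All automatic libraries except automatic 2 lay below all manual libraries, while the in vivo libraries spanned both. For the 11 control genes the scores were -0.95, 0.13, -0.32, 0.73 and -0.49 in automatic libraries, -0.07, -0.53, -0.37, 0.34 and 0.53 in manual libraries, and 0.46, 0.97, -0.08, 0.18 and -0.53 in vivo. Here the 3 groups overlapped. In vivo 2, lowest of all in the synthesis enzymes, was highest of all in the control genes. Its high control score lay in export and storage (3.49) and in uptake and transport (2.06), while its sterol sensing score was -0.91. Export and storage holds only 2 genes. ABCA1 stood at 246 CPM in this library against 5.67 to 31.9 CPM in the other in vivo libraries. SOAT1, at 1356 CPM, lay within the 823 to 1599 CPM of the in vivo libraries. Scored by themselves, the sterol sensing genes had the layout of the synthesis enzymes between automatic and manual libraries. Automatic 1, 3, 4 and 5 lay between -1.22 and -0.259 and automatic 2 at 1.398, against 0.00712 to 0.884 in manual libraries.

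**Figure D2:**
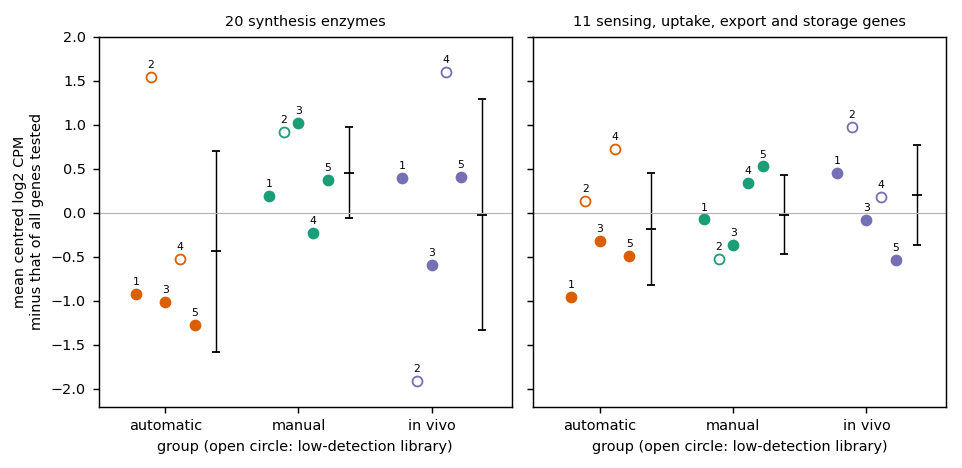
Score of the 20 synthesis enzymes (left) and of the 11 sensing, uptake, export and storage genes (right) in each library: mean centred log2 CPM minus that of all genes tested. Numbers give the library within its group, open circles are low-detection libraries and bars show mean ± SD (n = 5 libraries). Automatic 1, 3 and 5 sit at or below -0.92 for synthesis, and automatic 2 at 1.55.

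The comparison of automatic with manual denudation asks whether the way the cumulus is removed leaves a mark on the blastocyst. Of the 20 synthesis enzymes 16 lay below their manual level after automatic denudation, with a median log2 difference of -0.89, beside 52.9% of all genes tested below 0 and a median of -0.05 over all genes. Of the 11 control genes 8 lay below, with a median of -0.46. By edgeR's quasi-likelihood test 0 of the 31 genes were called (Benjamini-Hochberg adjusted p under 0.05), as were 0% of all genes tested; DESeq2 and limma-voom also called 0 of the 31. At an unadjusted p under 0.05, 5 synthesis enzymes lay lower and 1 higher, and 0 control genes did either, where 0.881% of all genes passed lower and 0.596% higher. For 4 synthesis enzymes, SQLE, CYP51A1, NSDHL and SC5D, every automatic library lay below every manual library, a separation in that direction that 0.527% of all genes showed. Leaving out 1 library put the enzyme median between -1.37 (without automatic 2) and -0.72 (without manual 1). The number at an unadjusted p under 0.05 and lower then ran from 1 to 7. It was 1 without automatic 5, 2 without automatic 3 and 3 without automatic 4. The shares of all genes in these fits are not given here. The 95% interval lay within 4-fold in both directions for 8 of the 31 genes.

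Without the 5 low-detection libraries, a choice made after seeing the data, 19 of 20 synthesis enzymes lay below their manual level (median -1.15, all genes 51.4% below 0). In that fit 12 of the 20 had an unadjusted p under 0.05 and lay lower, against 2.19% of all 12329 genes tested, and 11 did not overlap between the 3 automatic and 4 manual libraries, against 2.7%. Of the control genes 10 of 11 lay below (median -0.63), 1 with an unadjusted p under 0.05. A single gene of the whole table was called there, the enzyme CYP51A1 (0.00811% of genes). When each library's count of detected genes entered as a covariate instead, 16 of 20 lay below with a median of -0.98. There 6 had an unadjusted p under 0.05, and 0 were called by edgeR. The shares of all genes below 0 or under that p in the covariate fit are not given here, so nothing is read from these counts.

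**Figure D3:**
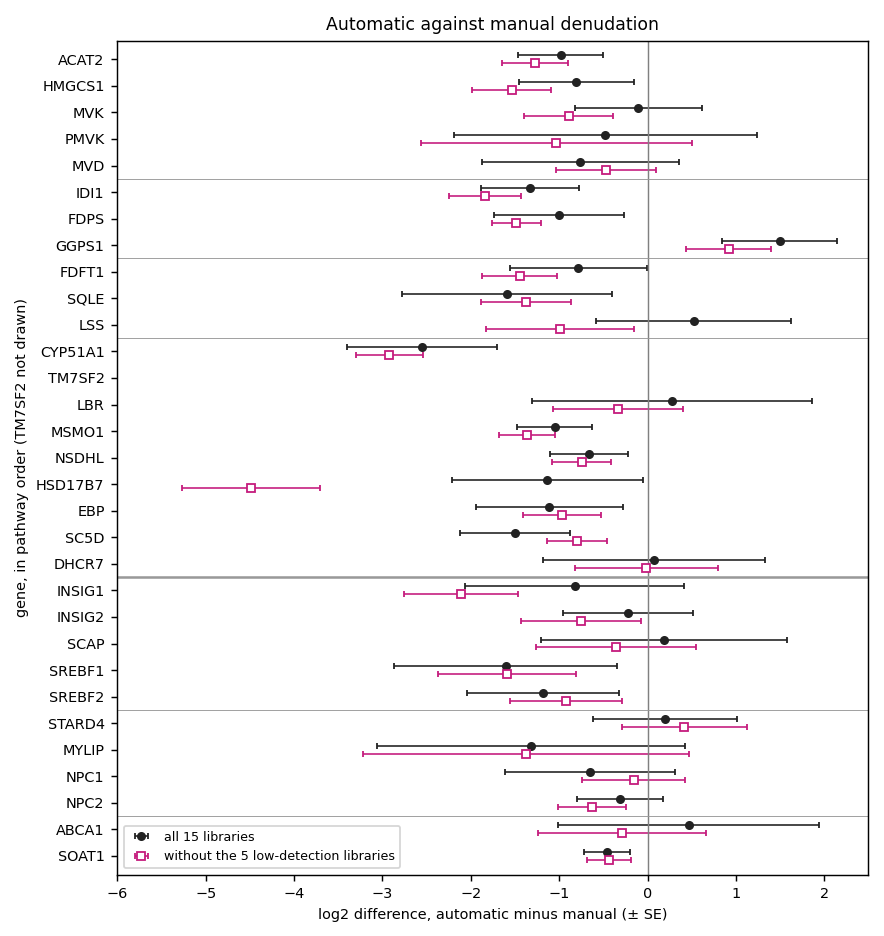
Log2 difference, automatic minus manual, with its standard error for 30 of the 31 genes in pathway order, with all 15 libraries (black circles) and without the 5 low-detection libraries (open squares). TM7SF2 is left out because it had 3 counts in total in the automatic group. CYP51A1 lies at -2.55 with all libraries and -2.92 without the low-detection libraries, and GGPS1 lies above 0 in both.

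The first stretch of the pathway makes mevalonate and activates it. ACAT2, which joins acetyl-CoA units in the cytosol, lay at 108 ± 44.4 CPM (automatic), 213 ± 57.4 CPM (manual) and 155 ± 96.8 CPM (in vivo; SD, n = 5 each). HMGCS1 had 133, 138, 80.3, 267 and 47.9 CPM in automatic libraries 1 to 5, 389, 138, 147, 309 and 183 CPM in the manual ones, and 119, 5.66, 94.9, 239.5 and 182 CPM in those from in vivo, each in order of library number. HMGCS1 condenses acetyl units into a precursor of mevalonate. Its groups overlapped throughout, with the lowest value in in vivo 2 and the highest in manual 1, and its log2 difference between automatic and manual was -0.81 ± 0.65 (SE). The kinases MVK and PMVK and the decarboxylase MVD turn mevalonate into isopentenyl diphosphate. MVK averaged 41.8 ± 25.3 CPM (automatic), 44.9 ± 22.3 CPM (manual) and 45.1 ± 31.8 CPM (in vivo; SD, n = 5 each). PMVK averaged 7.93 ± 12.2 CPM (automatic), 11.02 ± 9.15 CPM (manual) and 14.7 ± 19.7 CPM (in vivo; SD, n = 5 each), with 0 counts in 2 automatic libraries and 1 in vivo library. MVD averaged 32.3 ± 22.2 CPM (automatic), 54.8 ± 25.9 CPM (manual) and 49 ± 42.2 CPM (in vivo; SD, n = 5 each). Between automatic and manual the log2 differences of MVK, PMVK and MVD were -0.10 ± 0.72, -0.48 ± 1.72 and -0.76 ± 1.11. All 5 of these enzymes lay below 0, at most -0.10, and none of the 5 reached an unadjusted p under 0.05 by edgeR. Without the low-detection libraries ACAT2 and HMGCS1 were separated between the groups, with log2 differences of -1.27 ± 0.37 and -1.54 ± 0.45.

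Isoprenoid diphosphates come next. IDI1 had 23.8, 92.6, 37.03, 18.9 and 24.1 CPM in automatic libraries 1 to 5, 87.1, 84.7, 86.2, 111 and 126 CPM in the manual ones, and 62.8, 132, 33.7, 149 and 88.8 CPM in those from in vivo. IDI1 isomerises isopentenyl diphosphate, and only automatic 2, at 92.6 CPM, reached into the manual range. The log2 difference between automatic and manual was -1.33 ± 0.55 (edgeR unadjusted p = 0.0265, adjusted p = 0.9999). FDPS, which makes farnesyl diphosphate, showed the same layout, at 115 ± 83.1 CPM (automatic), 229.98 ± 40.5 CPM (manual) and 216 ± 159 CPM (in vivo; SD, n = 5 each), with a log2 difference of -0.9999 ± 0.74. Again automatic 2, at 261 CPM, was the 1 automatic library within the manual range of 178 to 278 CPM, and without the low-detection libraries FDPS differed by -1.49 ± 0.28 (edgeR adjusted p = 0.397).

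GGPS1 went the other way. GGPS1 had 45.2, 105, 53.9, 178 and 78.4 CPM in automatic libraries 1 to 5, 44.6, 37.2, 20.4, 45.4 and 15.9 CPM in the manual ones, and 24.99, 231, 30.8, 119 and 52.4 CPM in those from in vivo. GGPS1 draws farnesyl diphosphate out of the sterol branch to make geranylgeranyl diphosphate, which is attached to proteins such as small GTPases. Automatic libraries lay at 45.2 CPM or more and manual libraries at 45.4 CPM or less, so that 1 library of each group overlapped. The log2 difference was 1.49 ± 0.65 (edgeR unadjusted p = 0.0339, adjusted p = 0.9999), the only one of the 31 above 1. Without the low-detection libraries it was 0.92 ± 0.48 (edgeR unadjusted p = 0.0784). The highest values stood in low-detection libraries, 178 CPM in automatic 4 and 231 CPM in in vivo 2.

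From squalene to lanosterol, the enzymes are committed to sterol. SQLE had 34.4, 49.1, 52.9, 0 and 9.96 CPM in automatic libraries 1 to 5, 59.7, 99.6, 87.4, 89.9 and 104 CPM in the manual ones, and 49.3, 0.0765, 47.02, 192 and 78.6 CPM in those from in vivo. SQLE, squalene epoxidase, is a rate-limiting enzyme of the pathway, and its automatic libraries, at 52.9 CPM or less, all lay below its manual libraries, at 59.7 CPM or more. Its log2 difference was -1.59 ± 1.19, with a wide error that goes with 0 counts in automatic 4 (edgeR unadjusted p = 0.198). In vivo it ranged from 1 count in in vivo 2 to 192 CPM in in vivo 4. FDFT1, squalene synthase, averaged 113 ± 131 CPM (automatic), 195 ± 77.2 CPM (manual) and 131 ± 124 CPM (in vivo; SD, n = 5 each). LSS, lanosterol synthase, averaged 16.6 ± 18.7 CPM (automatic), 11.5 ± 7.76 CPM (manual) and 17.8 ± 18.5 CPM (in vivo; SD, n = 5 each). Automatic and manual differed in FDFT1 and LSS by -0.78 ± 0.78 and 0.52 ± 1.10, and by -1.45 ± 0.42 and -0.99 ± 0.84 without the low-detection libraries. The sign of LSS thus differed between the fits, its 49.2 CPM in automatic 4 being far above the 2.61 to 13.9 CPM of the other automatic libraries.

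The clearest separation lay at the first step after lanosterol. CYP51A1 had 23.2, 73.01, 18.2, 5.48 and 26.6 CPM in automatic libraries 1 to 5, 151, 162, 196, 165 and 183 CPM in the manual ones, and 65.5, 0.842, 43.5, 151 and 28.2 CPM in those from in vivo. CYP51A1 is the demethylase that starts the conversion of lanosterol. Every automatic library lay at 73.01 CPM or less and every manual library at 151 CPM or more, and the manual libraries were the most even of any of the 31 genes in that group, with a coefficient of variation of 10.3%. In vivo, 4 libraries lay at 65.5 CPM or less, and in vivo 4, at 150.7 CPM, just below the lowest manual library. The log2 difference between automatic and manual was -2.55 ± 0.85 (95% interval -4.33 to -0.77, edgeR unadjusted p = 0.00743, adjusted p = 0.9999). Without the low-detection libraries it was -2.92 ± 0.38, called by edgeR with an adjusted p = 0.0363. Over the fits that left out 1 library it stayed between -3.21 and -2.27, with an adjusted p of at least 0.9997.

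MSMO1 and SC5D, the oxidase of the methyl groups at carbon 4 and the desaturase near the end of the pathway, followed. MSMO1 had 180.2, 191, 166, 405 and 101 CPM in automatic libraries 1 to 5, 345, 609.7, 423, 376 and 412 CPM in the manual ones, and 168, 483, 109.96, 339.5 and 212 CPM in those from in vivo. Only automatic 4, at 405 CPM, reached the manual range, and the log2 difference was -1.05 ± 0.42 (edgeR unadjusted p = 0.0228, adjusted p = 0.9999). SC5D had 90.04, 115, 86.6, 6.19 and 66.9 CPM in automatic libraries 1 to 5, 126, 453, 171, 158 and 118 CPM in the manual ones, and 124, 31.3, 53.5, 122 and 98.6 CPM in those from in vivo. For SC5D the highest automatic library, at 114.5 CPM, lay just below the lowest manual library, at 118.03 CPM, and the difference was -1.49 ± 0.62 (edgeR unadjusted p = 0.0271). Manual 2, at 453 CPM, stood far above the other manual libraries, and without that library the difference was -0.97.

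Other late enzymes were less uniform. NSDHL, a dehydrogenase that works beside MSMO1, was separated with a small difference, at 62.8 ± 4.497 CPM (automatic), 99.4 ± 26.5 CPM (manual) and 79.6 ± 33.8 CPM (in vivo; SD, n = 5 each) and a log2 difference of -0.66 ± 0.45. HSD17B7, the reductase of the same complex, is named after its values were seen. HSD17B7 had 1.47, 47.7, 1.21, 15.1 and 2.05 CPM in automatic libraries 1 to 5, 12.8, 5.06, 22.8, 56 and 51.6 CPM in the manual ones, and 34.1, 19.98, 10.7, 8.599 and 18.1 CPM in those from in vivo. Its groups overlapped through automatic 2, automatic 4 and manual 2, all low-detection libraries. With all libraries HSD17B7 differed by -1.13 ± 1.08, and without these by -4.49 ± 0.78 (edgeR unadjusted p = 6.99e-05, adjusted p = 0.387). EBP, a sterol isomerase, averaged 86.3 ± 62.5 CPM (automatic), 186 ± 85.3 CPM (manual) and 103 ± 75.7 CPM (in vivo; SD, n = 5 each). DHCR7, which makes cholesterol from its last precursor, averaged 29.3 ± 20.9 CPM (automatic), 27.9 ± 20.7 CPM (manual) and 16.7 ± 16.4 CPM (in vivo; SD, n = 5 each). Their log2 differences between automatic and manual were -1.11 ± 0.83 and 0.07 ± 1.26.

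TM7SF2 and LBR both encode proteins with sterol C14 reductase activity, LBR being better known as a receptor of the inner nuclear membrane. TM7SF2 had 3 counts in automatic 1 and 0 counts in the other automatic libraries, 223 counts in manual 3 and 0 in the other manual libraries, and 38, 0, 73, 72 and 217 counts in vivo. It was thus detected in 1 of 5, 1 of 5 and 4 of 5 libraries, at 7.96 CPM or less. The edgeR unadjusted p was 0.0332 between automatic and manual, but without manual 3 the fitted difference was 2.48 in place of -5.92, so the value rests on that library. LBR, at 49.5 ± 47.8 CPM (automatic), 40.9 ± 60.4 CPM (manual) and 46.8 ± 41.9 CPM (in vivo; SD, n = 5 each), had 0 counts in 1 low-detection library of each group and differed by 0.27 ± 1.58.

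**Figure D4:**
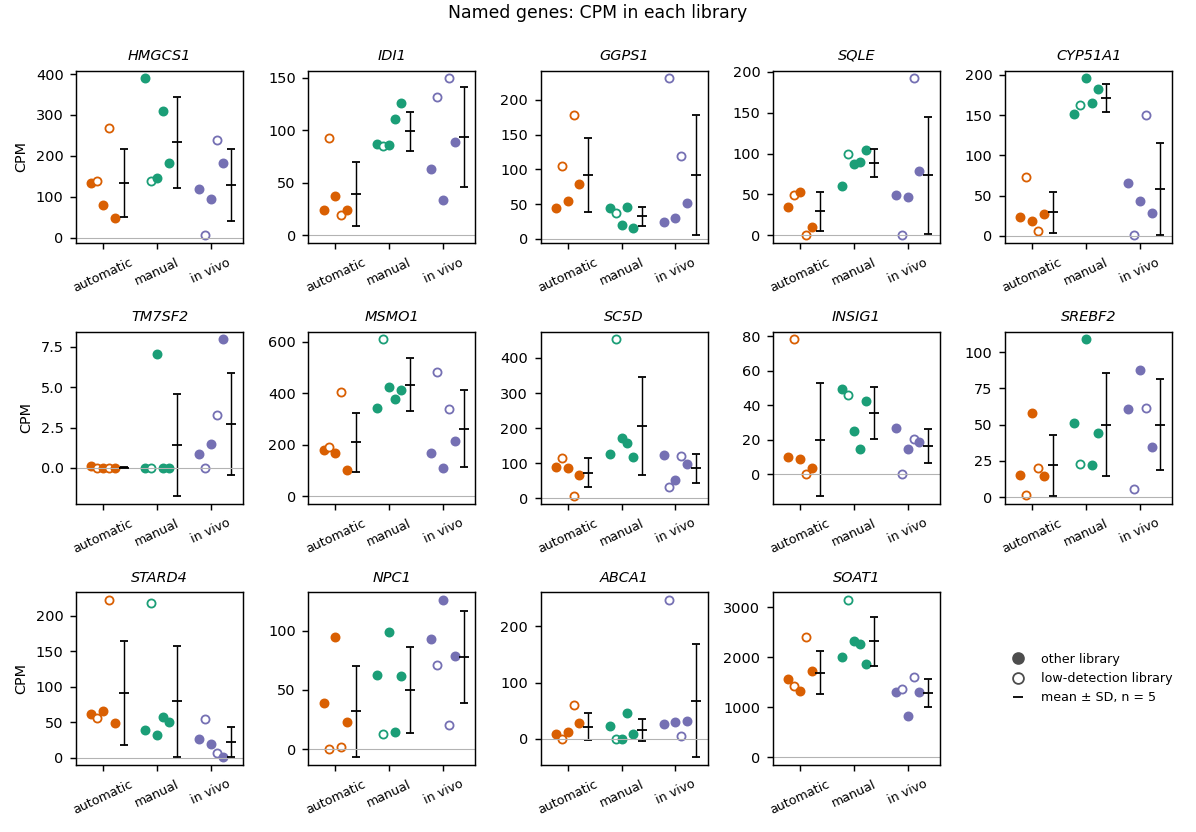
CPM of 14 genes in automatic, manual and in vivo libraries (linear axes, a separate scale for each gene). HSD17B7, also given library by library in the text, is not drawn. Filled circles are other libraries, open circles low-detection libraries, and bars show mean ± SD (n = 5). CYP51A1 and SQLE show no overlap between automatic and manual libraries, while the highest STARD4 values, 222 and 218 CPM, are those of automatic 4 and manual 2.

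Among the sterol sensors, none of the 5 genes had an unadjusted p under 0.05 between automatic and manual by edgeR. INSIG1 had 10.1, 78.3, 8.85, 0 and 3.69 CPM in automatic libraries 1 to 5, 49.8, 46.2, 25.1, 14.9 and 42.9 CPM in the manual ones, and 26.8, 0.536, 14.6, 20.8 and 18.6 CPM in those from in vivo. INSIG1, an SREBP target that itself retains SCAP, spanned the whole manual range within the automatic group, where automatic 2 stood at 78.3 CPM and automatic 4 at 0 counts. The log2 difference was -0.83 ± 1.24, and -2.11 ± 0.64 without the low-detection libraries (edgeR unadjusted p = 0.00586, adjusted p = 1), where the 3 automatic libraries lay at 10.1 CPM or less and the 4 manual ones at 14.9 CPM or more. INSIG2, which is not an SREBP target in the same way, averaged 33.8 ± 24.8 CPM (automatic), 39.4 ± 25.8 CPM (manual) and 59.5 ± 36.5 CPM (in vivo; SD, n = 5 each), a log2 difference between automatic and manual of -0.22 ± 0.74.

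SREBF2 had 15.6, 1.52, 57.7, 20.2 and 14.6 CPM in automatic libraries 1 to 5, 51.4, 22.6, 109, 22.03 and 44.4 CPM in the manual ones, and 61.04, 5.89, 87.7, 61.2 and 34.3 CPM in those from in vivo. SREBF2 encodes the SREBP that acts mainly on sterol genes, and its groups overlapped, with a log2 difference of -1.18 ± 0.86. SREBF1, whose products act more on fatty acid genes, lay at 5.697 ± 3.04 CPM (automatic), 17.3 ± 14.1 CPM (manual) and 14.3 ± 14.5 CPM (in vivo; SD, n = 5 each), a log2 difference of -1.60 ± 1.26 between automatic and manual. The escort SCAP averaged 9.94 ± 9.65 CPM (automatic), 8.74 ± 7.103 CPM (manual) and 7.61 ± 9.33 CPM (in vivo; SD, n = 5 each), a difference of 0.19 ± 1.39. Of the 5 sensing genes 4 lay below 0, and all 5 did without the low-detection libraries, with a median of -0.92.

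Uptake and transport genes did not share a direction. NPC1 had 38.9, 0.584, 94.6, 2.32 and 23.1 CPM in automatic libraries 1 to 5, 62.8, 12.6, 98.5, 14.7 and 61.4 CPM in the manual ones, and 93.2, 71.2, 126, 20.03 and 78.8 CPM in those from in vivo. NPC1 moves cholesterol out of lysosomes and differed by -0.65 ± 0.96, with its lowest automatic values, 0.584 and 2.32 CPM, in both low-detection libraries. Its partner NPC2 averaged 59.4 ± 29.2 CPM (automatic), 73.6 ± 23.3 CPM (manual) and 92.7 ± 35.3 CPM (in vivo; SD, n = 5 each) and differed by -0.31 ± 0.49. STARD4, a cytosolic sterol carrier, differed by 0.20 ± 0.82, and by -0.43 without automatic 4. MYLIP, a ubiquitin ligase and liver X receptor target that limits lipoprotein uptake, had 0 counts in 2 manual libraries and 1 in vivo library. It averaged 3.69 ± 2.57 CPM (automatic), 9.18 ± 11.5 CPM (manual) and 9.002 ± 8.03 CPM (in vivo; SD, n = 5 each) and differed by -1.32 ± 1.74.

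For export, ABCA1 had 8.19, 0, 11.9, 60.1 and 27.5 CPM in automatic libraries 1 to 5, 23.7, 0, 0.601, 45.6 and 8.002 CPM in the manual ones, and 26.7, 246, 29.3, 5.67 and 31.9 CPM in those from in vivo. ABCA1 passes cholesterol to apolipoproteins and responds to liver X receptors. It was at 0 counts in automatic 2 and manual 2, and at 246 CPM in in vivo 2, the library with the lowest synthesis score. Its log2 difference was 0.47 ± 1.48 between automatic and manual, and -0.29 without the low-detection libraries. SOAT1 stores cholesterol as esters. SOAT1 had 1572, 1414, 1329, 2401 and 1726 CPM in automatic libraries 1 to 5, 1995, 3140.2, 2325, 2254 and 1866 CPM in the manual ones, and 1301, 1356, 823, 1599 and 1299 CPM in those from in vivo. It lay at 823 CPM or more in every library. Automatic and manual differed by -0.46 ± 0.26, the 1 gene of the 31 whose 95% interval, -0.997 to 0.08, stayed within 2-fold.

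The second comparison sets culture against development in the animal. For the mean of the automatic and manual groups against in vivo, the 20 synthesis enzymes were centred near 0, with 8 above, 12 below and a median log2 difference of -0.05 (51.8% of all genes below 0). Of the 11 control genes 4 lay above and 7 below, with a median of -0.52. By edgeR 0 of the 31 genes were called, where 0.0173% of all genes were, and DESeq2 and limma-voom called 0 of them as well. At an unadjusted p under 0.05 there were 2 control genes above in vivo and 1 enzyme below, where 2.46% and 3.67% of all genes passed in these directions. The enzyme median ranged from -0.27 without automatic 2 to 0.17 without in vivo 4. No gene of the 31 separated all 10 in vitro libraries from all 5 in vivo libraries, as 0.475% of all genes did.

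The 2 control genes were STARD4 and SOAT1. STARD4 had 62.1, 56.5, 65.3, 222 and 48.6 CPM in automatic libraries 1 to 5, 38.5, 218, 32.1, 57.4 and 50.4 CPM in the manual ones, and 26.7, 54.2, 19.7, 6.72 and 1.06 CPM in those from in vivo. All automatic and manual libraries lay at 32.1 CPM or more, and 4 of 5 in vivo libraries at 26.7 CPM or less; in vivo 2, at 54.2 CPM, overlapped. The in vitro mean differed from in vivo by 1.97 ± 0.78 (edgeR unadjusted p = 0.0209, adjusted p = 0.7002), automatic alone by 2.07 ± 0.85 and manual alone by 1.87 ± 0.84. SOAT1 differed by 0.63 ± 0.23 for the in vitro mean (edgeR unadjusted p = 0.0125, adjusted p = 0.635), by 0.40 ± 0.26 for automatic and by 0.86 ± 0.26 for manual (edgeR unadjusted p = 0.00363, adjusted p = 0.994). All 5 manual libraries, from 1866 CPM upwards, lay above all 5 in vivo libraries, at most 1599 CPM, a separation upwards that 0.76% of all genes showed. Without the low-detection libraries, both STARD4 and SOAT1 separated the 7 in vitro from the 3 in vivo libraries (1.96% of all genes did so upwards), with log2 differences of 1.69 ± 0.71 and 0.66 ± 0.23.

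Set against in vivo one at a time, the 2 culture groups had enzyme medians on different sides of 0. Both are set against the same 5 in vivo libraries, so the values are given side by side and are not independent. After automatic denudation 16 of 20 enzymes lay below in vivo, with a median of -0.34 (52.4% of all genes below 0). After manual denudation 6 of 20 lay below and 14 above, with a median of 0.29 (50.6% of all genes below 0). By edgeR 0 of the 31 were called in either, where 0.0173% of all genes were called for automatic and 0% for manual; DESeq2 and limma-voom called 0 of the 31 in both. At an unadjusted p under 0.05, IDI1 and TM7SF2 were lower for automatic (2.7% of all genes were) and STARD4 higher (2.66%). For manual, GGPS1 was lower (1.5% of all genes were), and STARD4 and SOAT1 were higher (1.88%).

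**Figure D5:**
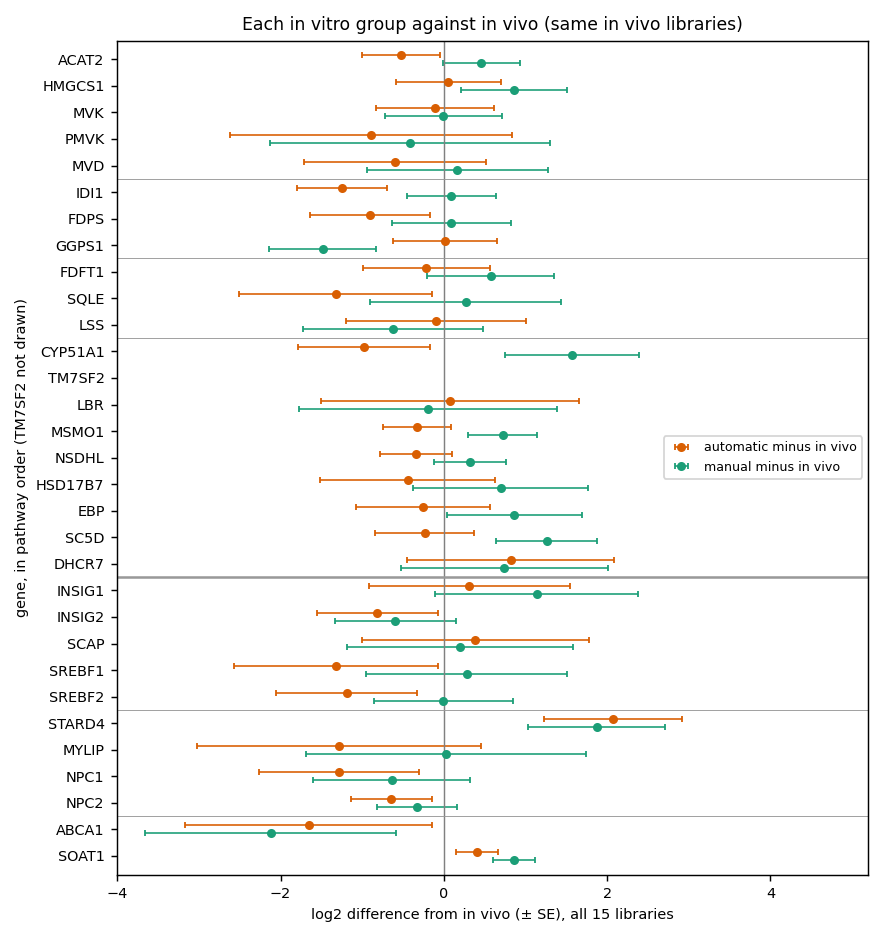
Log2 difference from in vivo, with its standard error, for 30 of the 31 genes after automatic and after manual denudation (all 15 libraries; the in vivo libraries are shared, and TM7SF2 is not drawn). CYP51A1 lies at -0.98 for automatic and 1.57 for manual, and STARD4 lies above 0 for both, at 2.07 and 1.87.

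Taken gene by gene, CYP51A1 differed from in vivo by -0.98 ± 0.81 after automatic and 1.57 ± 0.82 after manual denudation, and all 5 manual libraries lay above all 5 in vivo libraries by a narrow margin. MSMO1 differed by -0.33 ± 0.42 and 0.72 ± 0.42, SC5D by -0.24 ± 0.61 and 1.26 ± 0.62, and SQLE by -1.33 ± 1.18 and 0.27 ± 1.16. IDI1 lay near its in vivo level after manual denudation (0.09 ± 0.55) and below it after automatic denudation (-1.25 ± 0.55, edgeR unadjusted p = 0.0364, adjusted p = 0.9104). For GGPS1 it was the manual group that differed from in vivo, by -1.49 ± 0.65 (edgeR unadjusted p = 0.0349, adjusted p = 0.9997), while automatic lay at 0.01 ± 0.64. GGPS1 stood at 231 and 119 CPM in in vivo 2 and 4, and without all low-detection libraries manual differed by -0.19 ± 0.48. TM7SF2, with 3 counts in all automatic libraries against 38 to 217 in 4 of 5 in vivo libraries, had an edgeR unadjusted p of 0.0196 (adjusted p = 0.785).

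Without the low-detection libraries the enzyme median of automatic moved away from in vivo (from -0.34), and that of manual moved slightly towards it (from 0.29). After automatic denudation 18 of 20 enzymes lay below in vivo, with a median of -0.82 (49.9% of all genes below 0), and 5 of them had an unadjusted p under 0.05, MVK, IDI1, FDPS, CYP51A1 and HSD17B7 (3.41% of all genes did so downwards). After manual denudation 13 of 20 lay above, with a median of 0.20 (49.4% of all genes below 0), and 4 of them had an unadjusted p under 0.05, HMGCS1, FDFT1, CYP51A1 and MSMO1 (4.32% of all genes did so upwards). In that fit CYP51A1 differed by -1.01 ± 0.37 after automatic and by 1.91 ± 0.36 after manual denudation (edgeR adjusted p = 0.578 and 0.202), and HSD17B7 by -3.73 ± 0.77 and 0.76 ± 0.65. By edgeR 0 of the 31 genes were called there in either comparison, where 0.073% and 0.0243% of all genes were.

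Control genes set against in vivo depended on the group and the gene. After automatic denudation 7 of 11 lay below, with a median of -0.81 beside -0.34 for the enzymes (52.4% of all genes below 0). A lower level than in vivo was thus not particular to the enzymes. After manual denudation 5 of 11 lay below and 6 above, with a median of 0.03. INSIG1 differed by 0.31 ± 1.23 after automatic and 1.14 ± 1.25 after manual denudation, and SREBF2 by -1.19 ± 0.86 and -0.01 ± 0.85. NPC1 differed by -1.29 ± 0.97 and -0.64 ± 0.96, and NPC2 by -0.64 ± 0.49 and -0.33 ± 0.49. ABCA1 differed by -1.66 ± 1.52 and -2.12 ± 1.54; without the low-detection libraries, in vivo 2 at 246 CPM among them, it differed by -0.88 ± 1.02 and -0.59 ± 0.94. None of INSIG1, SREBF2, NPC1, NPC2 and ABCA1 reached an unadjusted p under 0.05 by edgeR with all libraries. Without the low-detection libraries INSIG1 turned to -1.39 ± 0.65 after automatic denudation (edgeR unadjusted p = 0.0528) and was 0.72 ± 0.61 after manual denudation. SREBF1 was -1.79 ± 0.82 and -0.21 ± 0.74 there (edgeR unadjusted p = 0.0479 for automatic, adjusted p = 0.712). Of the 11 control genes 9 lay below in vivo there after automatic denudation, with a median of -0.90 beside -0.82 for the enzymes (49.9% of all genes below 0). After manual denudation 6 of 11 lay below there, with a median of -0.08. In that fit all 5 sensing genes lay below in vivo after automatic denudation (median -1.04) and 4 of 5 after manual denudation (median -0.11). INSIG1 and SREBF1 did not overlap between automatic and in vivo libraries, as 8.62% of all genes did not in that direction.

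Further genes around the pathway, outside the 31, were read from 5 lists. Of 8 other genes of sterol synthesis 5 were tested, and all 5 lay below their manual level after automatic denudation (median -0.42), while 3 of 5 lay above in vivo for the in vitro mean (median 0.17). TMEM97, an endoplasmic reticulum protein that binds sterol, averaged 52.2 ± 32.7 CPM (automatic), 111 ± 29.5 CPM (manual) and 160.1 ± 46.9 CPM (in vivo; SD, n = 5 each), with a log2 difference of -1.07 ± 0.54 for the in vitro mean (edgeR adjusted p = 0.856). Genes that cleave SREBP or serve sterol-regulated protein degradation had medians near 0. Of 10 tested, 4 lay below in automatic against manual (median 0.12) and 6 below in vitro against in vivo (median -0.01), with 0 at an unadjusted p under 0.05. MBTPS1, the first SREBP protease, differed by 0.66 ± 0.68 in automatic against manual, and ERLIN2, which takes part in that degradation, by -0.85 ± 0.56 in vitro against in vivo.

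Of 9 other uptake and transport genes tested, 5 lay below in automatic against manual (median -0.25) and 4 below in vitro against in vivo (median 0.29), and GRAMD1C, a sterol transfer protein, differed by 0.73 ± 0.47 in the second. Of 8 other export and storage genes 3 were expressed enough to test. NR1H3, a liver X receptor, differed by -1.44 ± 1.64 in automatic against manual and by -0.46 ± 1.37 in vitro against in vivo, with a median of the 3 genes of 0.07 and -0.23. Genes that use isoprenoids, for prenylation, dolichol and ubiquinone, lay below in 8 of 11 in automatic against manual (median -0.15) and in 4 of 11 in vitro against in vivo (median 0.12). FNTA, a farnesyltransferase subunit, differed by -0.61 ± 0.53 in the first. FNTB, its partner, differed by -2.30 ± 1.01 in the second (edgeR unadjusted p = 0.0357, adjusted p = 0.783). FNTB averaged 18.8 ± 16.4 CPM (automatic), 18.97 ± 12.8 CPM (manual) and 92.8 ± 144 CPM (in vivo; SD, n = 5 each). In vivo it ranged from 5.9 to 349 CPM, so that mean rests largely on the highest library. The FNTB difference without that library is not given here. In each of the 5 lists and both comparisons 0 genes were called by edgeR, and at most 1 gene had an unadjusted p under 0.05.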

How the data were processed

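Polyadenylated RNA of 15 bovine blastocyst libraries was sequenced after a stranded KAPA library preparation with adaptors that carry molecular identifiers, per the labels' protocols. The authors deposited estimated counts per gene symbol, and FastQC, fastp and kallisto are named in the submitters' processing notes, with no versions. Not given in the sources used here: the genome build, the transcript set and whether molecular identifiers were collapsed. Estimated counts divide reads between similar transcripts by a model, and how far this touches related genes such as INSIG1 and INSIG2 was not tested.

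From these, counts were rounded to whole numbers (0 values changed), and 1 line without a gene name was left out. Genes were kept by edgeR's filterByExpr, libraries were scaled by TMM, and 4 contrasts were fitted over all 15 libraries with edgeR 4.0.16 (quasi-likelihood, robust) and limma 3.58.1 in R 4.3.3. DESeq2 1.42.0 and limma-voom were alternatives. P-values were adjusted by Benjamini-Hochberg over all 11578 genes, and a gene was called at an adjusted p under 0.05. Log2 differences are followed by their SE, and CPM means by their SD. The scripts were tested on simulated data.

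The 31 genes, the other gene lists and the markers were chosen with earlier results of these data known. Values in every library are given for genes with an unadjusted p under 0.05 in any contrast, for the 3 smallest p-values of each contrast, and for 7 genes taken from the steps of the pathway (HMGCS1, SQLE, CYP51A1, INSIG1, SREBF2, NPC1 and ABCA1). HSD17B7, and FDPS, NSDHL and LSS where their values are discussed, were singled out after their values were seen. From each further list the gene with the smallest p is named, and some are not reported here. The low-detection libraries, with under 9000 genes at 10 or more counts, were set after seeing the data. Replicates of a group differed by far more than sampling noise (smallest chi-square between a pair, 184 per degree of freedom). Replicate numbers were not used to pair libraries. Interval widths cover the spread between libraries. A search of promoters for motifs and sequences of the genes was not made here.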

Additional observations from a re-analysis of the deposited data

Results flagged for a closer look

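In 16 of 93 gene and group combinations, 1 library stood apart from the other 4 by more than Dixon's 95% critical value for 5 values (0.71 of the range). Chance flags about 1 in 20 groups of normal values. CPM are bounded at 0 and skewed upwards, so that rate does not hold here, and nothing is read from the number of such cases or from the highest library being the one apart in all 16. In 12 it was a low-detection library.

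Library automatic 2 stood apart in 7 genes. It had 185 CPM of ACAT2 against 78.3 to 101 CPM in the other automatic libraries, 29.2 CPM of PMVK against 0 to 5.54 CPM, and 92.6 CPM of IDI1 against 18.9 to 37.03 CPM. It had 261 CPM of FDPS against 56.8 to 98.5 CPM and 340.1 CPM of FDFT1 against 7.36 to 88.9 CPM. Among control genes it had 78.3 CPM of INSIG1 against 0 to 10.1 CPM and 109 CPM of NPC2 against 37.6 to 55.4 CPM. Of these 7 genes, 5 are synthesis enzymes and 3 steps before lanosterol hold all 5.

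Automatic 4 had 49.2 CPM of LSS against 2.61 to 13.9 CPM in the other automatic libraries, and 222 CPM of STARD4 against 48.6 to 65.3 CPM. Manual 2 had 453 CPM of SC5D against 118.03 to 171 CPM in the other manual libraries, and 218 CPM of STARD4 against 32.1 to 57.4 CPM. In vivo 2 had 246 CPM of ABCA1 against 5.67 to 31.9 CPM in the other in vivo libraries.

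The other 4 lay in libraries with more genes detected. Manual 3 had 147 CPM of LBR against 0 to 33.6 CPM in the other manual libraries, and 7.05 CPM of TM7SF2 against 0 in all of them. Automatic 1 had 0.0938 CPM of TM7SF2, which is 3 counts, against 0 in the other automatic libraries. In vivo 3 had 23.8 CPM of SCAP against 0.412 to 6.78 CPM in the other in vivo libraries.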

How the results depend on the processing

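Under every alternative run the medians of the synthesis and of the control genes kept their sign in automatic against manual and in automatic against in vivo, as did the control median for the in vitro mean and the synthesis median for manual against in vivo. The synthesis median for the in vitro mean (-0.05) ran from -0.27 without automatic 2 to 0.17 without in vivo 4. The control median for manual against in vivo (0.03) ran from -0.33 without manual 3 to 0.34 without manual 2, and was -0.23 by limma-voom. Neither has a stable sign. The number of the 31 genes called was 0 throughout, except for 1 (CYP51A1) in automatic against manual without the low-detection libraries. In that comparison the number of all genes called was 0, but 9 by DESeq2 and 1 without the low-detection libraries. For the in vitro mean against in vivo it was 2, but 0 with library size alone in place of TMM, 87 by DESeq2, 15 by limma-voom, 7 without the low-detection libraries and 7 with detected genes as a covariate. It was 0 to 7 with 1 library left out, and 7 without manual 3. For automatic against in vivo it was 2, but 0 with library size alone, 1 with no filter on low counts, 87 by DESeq2, 9 by limma-voom, 9 without the low-detection libraries, 1 with only the groups compared in the fit, and 0 to 4 with 1 library left out. For manual against in vivo it was 0, but 44 by DESeq2, 1 by limma-voom and 3 without the low-detection libraries. With library size alone the all-gene median for the in vitro mean against in vivo was 0.10 in place of -0.04, with 44.9% below 0 in place of 51.8%.

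Replicate numbers are shared by the groups. Same-numbered libraries correlated in their deviations at 0.00137 to 0.38 (15 pairs, median 0.12, 8 above 0.1), against -0.28 to 0.37 for other pairs (60 pairs, median -0.03, 7 above 0.1), and 8 of 15 libraries correlated best with one of their own number. All 3 pairs of number 1 and of number 3 exceeded 0.1, while no pair of number 4 or 5 did. Low detection also ran with the number, in all 3 libraries numbered 2 and in 2 numbered 4. Since not every pair exceeded 0.1 and no label gives the number a meaning, libraries were not paired; whether some numbers mark a shared batch was not tested. With the replicate block, 8 genes were called for the in vitro mean against in vivo, 7 for automatic against in vivo, 1 for manual against in vivo and 0 for automatic against manual, with 0 of the 31 genes among them.

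Over all alternative runs, signs were followed only for the genes given library by library, HSD17B7 apart. For automatic and for manual against in vivo, fewer of these genes were followed. Among the genes followed, signs turned for those listed next, and the cause was not tested. All of those had an unadjusted p above 0.05 except TM7SF2 (-5.92 ± 2.57), whose manual counts lie in 1 library. In automatic against manual, TM7SF2 ranged from -8.37 (without automatic 1) to 2.48 (without manual 3) and STARD4 from -0.43 (without automatic 4) to 1.003 (without manual 2). ABCA1 ranged from -0.38 (without automatic 4) to 1.43 (without manual 4), and was -0.29 without the low-detection libraries and -0.0425 with detected genes as a covariate. For the in vitro mean against in vivo, GGPS1 was 0.0093 by limma-voom and 0.27 without the low-detection libraries, SQLE ranged from -0.83 (without in vivo 2) to 0.22 (without in vivo 4), and CYP51A1 from -0.0675 (without automatic 2) to 1.03 (without in vivo 4). INSIG1 there ranged from -0.21 (without automatic 2) to 0.98 (without in vivo 1), and was -0.10 by limma-voom, -0.22 with the replicate block and -0.33 without the low-detection libraries. This list is not complete for the 31 genes. Without the low-detection libraries, LSS (to -0.99), LBR (-0.33), SCAP (-0.36) and DHCR7 (-0.01) also turned in automatic against manual. Further genes turned in the other comparisons. Among them were HSD17B7 (to -1.49) and EBP (-0.28) for the in vitro mean, and HMGCS1 (-0.58) and INSIG1 (-1.39) for automatic against in vivo. A filter of 1 CPM in 5 libraries left TM7SF2 untested. For the in vitro mean, a fit of only the groups compared is the same as the fit of all libraries. With 5 libraries a group and this spread, modest differences of most of these genes were not detectable.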
